A study of Homo sapiens with 22 samples.

Results

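RAD21 peaks of clone NIPBL-D7 were compared between cells kept for 24 h in DMSO, the solvent control, and cells kept for 24 h in dTAGV-1. The clone is 1 line derived from hTERT RPE-1, telomerase-immortalised human retinal pigment epithelial cells, and carries the genotype mGreenLantern-P2A-FKBP12(F36V)-NIPBL, in which a degron makes NIPBL degradable by dTAGV-1. DMSO and treated cells share this tagged allele. Each condition had 1 library, from asynchronous cycling cells with about 10% NIH/3T3 chromatin added as a spike-in, for which no factor was used here. A DMSO peak was called retained when a peak of the 24 h list overlapped it by at least 1 bp and lost otherwise, and a 24 h peak that overlapped no DMSO peak was called new. The DMSO list held 37566 peaks and the 24 h list 30114, together 67680 of the 340893 peaks in the 11 lists read. Of the DMSO peaks 25827 were retained and 11739 were lost, and of the 24 h peaks 4059 were new.

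RAD21 is the kleisin that closes the ring of cohesin, the complex that folds interphase chromatin into loops and holds sister chromatids together. NIPBL, with its partner MAU2, activates the cohesin ATPase and drives loop extrusion, and WAPL and PDS5 proteins govern release of the ring. CTCF, a zinc-finger protein bound to an oriented motif, stops extruding cohesin, so most cohesin peaks of mammalian cells lie on CTCF sites. STAG1 and STAG2 are alternative subunits of the complex. Peak lists measure no expression, so the identity of the cells could not be checked against pigment epithelium markers, and NIPBL protein levels were not analysed here.

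For annotation, wild-type RPE-1 cells gave the CTCF and WAPL lists without a spike-in, untreated clone D7 gave those of STAG1 and STAG2 without a spike-in, and clone D7 in DMSO gave that of PDS5A, with the input chromatin of the DMSO RAD21 library. RAD21 of clone D7 after 4 h of dTAGV-1, and of clone NIPBL-A2 (mCherry-P2A-FKBP12(F36V)-NIPBL, also 1 clone) in DMSO and after 4 h and 24 h were read as well. Depth, read as the lowest local background pileup, was nearly equal in the 2 lists compared, 3.00 in DMSO and 3.07 at 24 h, and the narrowest peaks were 337 and 317 bp. The CTCF list was the deepest at 13.4, the STAG2 list had 3.14, the STAG1 list 1.77 and the PDS5A list 2.76. For clone A2 the values were 1.87 in DMSO and 2.83 at 24 h. Shares below carry 95% Wilson intervals and differences of shares 95% Newcombe intervals. They cover counting error only, and with 1 library per condition no p-value was computed and no difference has a replicate check.

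The libraries did not all hold the same strong sites, which bears on the new peaks. In deciles 7 to 10 of 24 h fold enrichment, the authors' ratio of signal over local background at the summit, 382 peaks were new and 11663 retained. Of these new peaks, 99.7% overlapped CTCF. The clone A2 DMSO list held 99.0% of them, the clone A2 4 h list 99.2% and the STAG2 list 94.2%. The STAG1 list held 3.66%, the PDS5A list 1.57%, the clone D7 4 h list 11.8% and the clone A2 24 h list 5.76%. Retained peaks of the same deciles lay in these 7 lists in 99.8%, 99.7%, 93.9%, 93.4%, 75.9%, 98.7% and 96.8% of cases, in the same order. Untreated cells of the other clone thus had these sites as peaks, while 4 other lists lacked most of them together with the clone D7 DMSO list. Of the strong new peaks 45.4% lay over 100 kb from a start site against 25.6% of the strong retained peaks, 13.9% against 5.90% lay on gene-poor chromosome 4, and 0 of 382 (up to 0.996%) against 3.00% lay on gene-rich chromosome 19. Inside a protein-coding gene, however, lay 49.7% (44.8 to 54.7) of the strong new and 40.8% (39.9 to 41.7) of the strong retained peaks. Base composition of the peaks was not analysed here, and what sets these lists apart was not tested.

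After 24 h of dTAGV-1, 31.2% (30.8 to 31.7) of DMSO peaks were lost and 13.5% (13.1 to 13.9) of 24 h peaks were new. Among the 31719 DMSO peaks that clone A2 in DMSO also had, 21.99% were lost. Of the 24 h peaks, 5.55% were absent from the DMSO lists of both clones. Without the 382 strong new peaks the new share was 12.4%. With the DMSO list reduced to its 30114 peaks of highest fold, the length of the 24 h list, the lost share was 21.2% (20.7 to 21.6) and the new share 20.4% (19.99 to 20.9).

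Lost peaks were weak, narrow and often away from CTCF. Their median DMSO fold enrichment was 4.92 (4.87 to 4.97), against 15.9 (15.6 to 16.2) for retained peaks. The median width was 490 bp (486 to 494) for lost and 785 bp (780 to 788) for retained peaks. CTCF was under 59.8% (58.9 to 60.7) of lost and 93.6% (93.3 to 93.9) of retained peaks. New peaks had a median 24 h fold of 5.81, a median width of 442 bp and CTCF under 74.1% (72.7 to 75.4). The CTCF share of new peaks was thus 14.3 points (12.6 to 15.9) above that of lost peaks at full length. That direction turned with equal list lengths, to −10.7 points (−12.3 to −9.22), and also when only lost peaks held by the clone A2 DMSO list and new peaks absent from it were taken, to −21.9 points (−24.5 to −19.3).

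**Figure D1:**
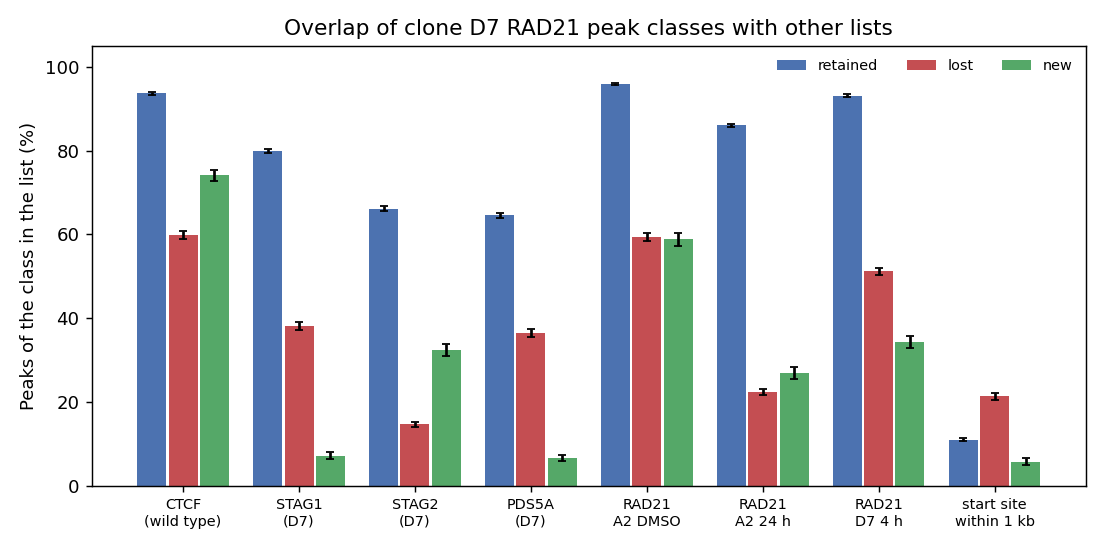
Share of retained, lost and new RAD21 peaks of clone D7 (y axis, percent, bars from 0 with 95% Wilson intervals) that overlap a peak of each list named on the x axis, or whose summit lies within 1 kb of a start site. Retained peaks lead in every list, new peaks are rare in the STAG1 (7.12%) and PDS5A (6.55%) lists, and lost peaks are the class most often at start sites (21.3%).

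The 5 strongest lost peaks lay on CTCF. First by DMSO fold was a peak on chromosome 2 from 176140234 to 176141102, in the HOXD cluster 7976 bp from HOXD8, a homeobox transcription factor gene. Its DMSO fold was 44.6, and it was the 1 lost peak of the 3756 in decile 10. It also lay in the clone A2 24 h list, so the clones differed at this site. INVS, which encodes the ciliary protein inversin, held a lost peak on chromosome 9 from 100215954 to 100216851 with a fold of 34.3. ABR, a BCR-related gene, held one on chromosome 17 from 1058176 to 1058993 with a fold of 32.4. DNAAF5, a dynein assembly factor, held one on chromosome 7 from 774291 to 775057, also at 32.4. The next lay 5763 bp from GDF11, a ligand of the TGF-beta family, on chromosome 12 from 55736903 to 55737747, with a fold of 31.9. The peaks at INVS, ABR, DNAAF5 and GDF11 were absent from the clone A2 24 h list as well, and all 5 were still listed in clone D7 at 4 h.

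Retained peaks reached higher. The 5 strongest lay at ABTB2, near HHIPL2, at ADAT2, a tRNA-editing deaminase, at CFAP45, a ciliary protein, and near RIMS1, a presynaptic protein. Their DMSO folds ran from 181 to 204. In the 24 h list the ABTB2 peak (chromosome 11, 34173904 to 34175138) had a fold of 166, the HHIPL2 peak 175, the ADAT2 peak 121, the CFAP45 peak 111 and the RIMS1 peak 118. Every one of the 5 overlapped CTCF, STAG1, STAG2, PDS5A, WAPL and all other RAD21 lists. A fold is scaled within its own library, so the difference between these folds is no measure of occupancy.

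Loss followed the strength of the DMSO peak. In decile 1 by DMSO fold, the weakest (up to 3.80), 75.6% (74.2 to 77.0) of peaks were lost. The share was 47.3% in decile 4, 18.9% in decile 6, 2.69% in decile 8 and 0.0266% in decile 10, where folds began at 42.9. Within the deciles CTCF still separated the peaks. In decile 1, 81.5% (79.9 to 83.0) of CTCF-free and 64.7% (62.0 to 67.2) of CTCF-overlapping peaks were lost. In decile 4 the shares were 59.4% (55.5 to 63.1) and 44.9% (43.1 to 46.6). In decile 6, with 61 CTCF-free peaks, they were 18.0% (10.4 to 29.5) and 18.9% (17.7 to 20.2), within counting error of each other. Over all peaks the lost share was 74.2% without CTCF and 22.5% with it, a difference of 51.7 points (50.5 to 52.8) that came to 17.1 points when matched on deciles of fold.

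**Figure D2:**
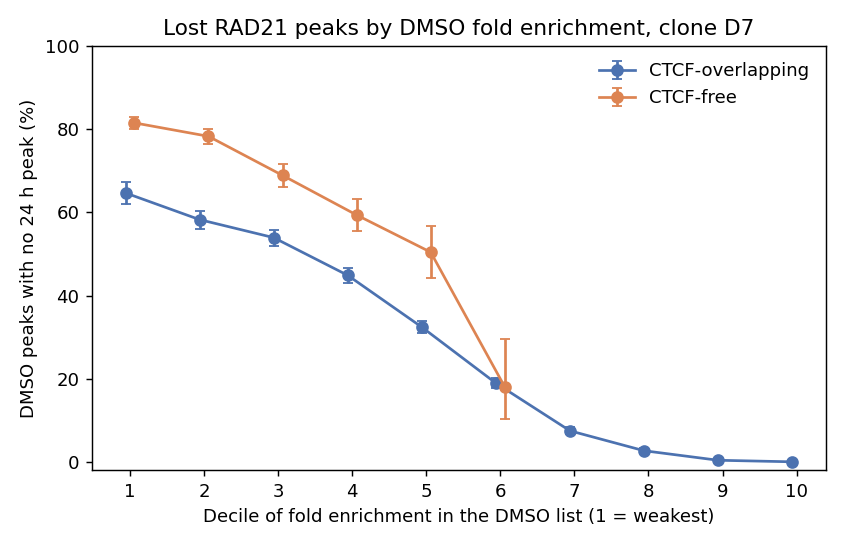
Share of DMSO peaks lost at 24 h (y axis, percent, points with 95% Wilson intervals) by decile of fold enrichment in the DMSO list (x axis, 1 is the weakest), for CTCF-overlapping and CTCF-free peaks, with deciles of under 20 peaks left out. Both lines fall with fold, and the CTCF-free line lies above the other from decile 1 (81.5% against 64.7%) to decile 5 (50.4% against 32.4%).

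The strength of the CTCF peak ordered the loss too. CTCF peaks were ranked by their own fold into 4 groups of equal size. Where RAD21 overlapped the weakest group, 57.1% (54.9 to 59.3) of peaks were lost. The next groups gave 46.4% (44.9 to 47.8), 23.8% (23.03 to 24.7) and 8.94% (8.48 to 9.42). The median RAD21 fold in these groups was 4.65, 6.23, 10.5 and 25.8, so RAD21 and CTCF strength moved together. At CTCF, summits of both proteins lay close. The median distance was 27 bp for lost, 26 bp for retained and 22 bp for new peaks, and 83.3%, 90.2% and 94.3% lay within 100 bp.

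The subunits STAG1 and STAG2 in untreated cells were distributed unequally over the classes. STAG1 was under 80.0% of retained, 38.2% (37.3 to 39.0) of lost and 7.12% (6.37 to 7.95) of new peaks. STAG2 was under 66.1%, 14.7% (14.0 to 15.3) and 32.3% (30.9 to 33.8). Lost peaks therefore held STAG1 more often than STAG2, by 23.5 points (22.4 to 24.6), and new peaks held it less often, by 25.2 points (23.5 to 26.9). An excess of STAG1 was common to the DMSO list, at 16.9 points over all DMSO peaks and 13.9 points among retained peaks. It was not general to lost peaks. At CTCF away from starts the difference was 25.0 points among lost and 8.13 points among retained peaks. At CTCF at starts it was 60.0 and 57.6 points. Among CTCF-free peaks it was −1.92 and 12.4 points away from starts, and 50.7 and 74.7 points at starts. With STAG lists of equal length the excess among lost peaks was 8.76 points (7.81 to 9.70), and that over all DMSO peaks was not analysed. PDS5A, a cohesin regulator, was under 64.6%, 36.5% and 6.55% of the 3 classes, and WAPL under 10.1%, 0.0852% and 0.370%. DMSO peaks with both STAG1 and STAG2 were lost in 4.52% (4.204 to 4.86) of 15462 cases and those with neither in 68.7% (67.7 to 69.7) of 9079. At CTCF, 33.5% (32.5 to 34.6) of STAG1-only and 15.4% (14.1 to 16.9) of STAG2-only peaks were lost, a difference of 18.1 points (16.3 to 19.8), although the STAG1-only peaks had the higher median DMSO fold, 9.18 against 7.86. Matched on deciles of fold the difference was 20.4 points. The 382 strong sites that the DMSO and STAG1 lists lack and the 24 h and STAG2 lists hold run in the same direction. Without them the deficit of STAG1 among new peaks was 18.4 points, but weaker new peaks with the same list pattern remained. In deciles 5 and 6 of 24 h fold the STAG1 list held 5.93% and 2.60% of new peaks and the STAG2 list 60.8% and 78.4%. The clone A2 DMSO list held 90.8% and 97.4% of them. The part of library composition in these STAG differences was not tested.

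**Figure D3:**
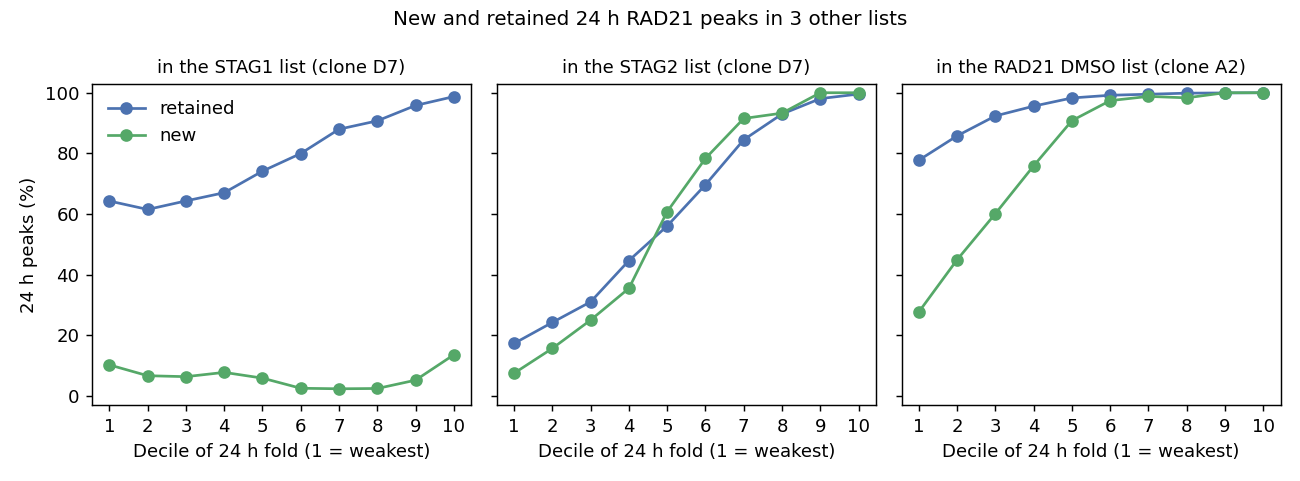
Share of retained and new 24 h peaks (y axis, percent) found in the STAG1 list, the STAG2 list and the clone A2 DMSO RAD21 list, by decile of 24 h fold (x axis, 1 is the weakest). New peaks stay between 2.42% and 13.6% in the STAG1 list in every decile, while in the STAG2 and clone A2 lists they rise to 100% in decile 10, as retained peaks do (99.6% and 100%).

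The 5 strongest new peaks lay on chromosomes 4 and 10, 2 of them inside genes. The first was on chromosome 4 from 162497268 to 162498243 with a 24 h fold of 77.0, 333775 bp from FSTL5, a follistatin-like gene. A fold of 74.4 was found for the next, on chromosome 4 from 145216280 to 145217255, 36162 bp from OTUD4, a deubiquitinase gene. Another on chromosome 4, from 136864298 to 136865294, had a fold of 71.3 and was 654168 bp from PCDH18, a protocadherin gene. MPP7, a scaffold of cell junctions, held one on chromosome 10 from 28179124 to 28180214 with a fold of 71.2. The last was on chromosome 4 from 69616795 to 69617720, inside UGT2A1 and UGT2A2, overlapping glucuronosyltransferase genes, with a fold of 70.5. All 5 overlapped CTCF, STAG2 and both the DMSO and 4 h RAD21 lists of clone A2, and none was in the PDS5A or clone A2 24 h list. The peaks near FSTL5 and PCDH18 and in MPP7 were also in the clone D7 4 h list.

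The clone A2 DMSO list held 58.8% (57.3 to 60.3) of all new peaks, and these had CTCF under 91.3% and a median fold of 7.43. The 1672 others had CTCF under 49.6% (47.2 to 52.0), a median fold of 4.67 and a median width of 390 bp. STAG1 was under 6.10% and STAG2 under 6.28% of them. Only 659 new peaks, 16.2% (15.1 to 17.4), were in no other RAD21 list of either clone, and 38.2% of those overlapped CTCF. New peaks at CTCF were thus mostly sites that untreated clone A2 also listed.

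Clone A2 gave a check of the classes with libraries that the rule did not use and with no shared control. Of the 6975 lost peaks listed in clone A2 in DMSO, 4864 had no clone A2 24 h peak, or 69.7% (68.6 to 70.8). Of the 24744 retained peaks in that list, 2927 had none, or 11.8% (11.4 to 12.2). The difference was 57.9 points (56.7 to 59.0), and 34.8 points when matched on deciles of clone D7 DMSO fold. In decile 4 the shares were 66.0% (63.4 to 68.6) and 29.6% (27.6 to 31.8). In decile 7 they were 38.3% (32.7 to 44.1) and 4.86% (4.19 to 5.62). Without CTCF they were 82.8% (81.1 to 84.4) and 50.3% (47.4 to 53.1). The 4 h library of clone D7 is compared with the same DMSO library, so its values are given only side by side. The 4 h list held 51.2% of lost and 93.1% of retained DMSO peaks.

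Loss was more frequent at start sites of protein-coding genes, where RAD21 peaks were weaker. Start sites on chromosome 8 were not analysed here, and all values on start sites leave out its peaks. The start sites used belong to 15812 of 19974 protein-coding genes. On the other chromosomes, a peak at a start that is not among them counts as away from starts. Of lost peaks 21.3% (20.6 to 22.1) had a summit within 1 kb of a start site, against 11.01% (10.6 to 11.4) of retained and 5.75% (5.05 to 6.53) of new peaks. At start sites 46.9% (45.5 to 48.3) of DMSO peaks were lost, at a median fold of 5.21. Between 1 and 10 kb the share was 29.8% (28.6 to 31.1), at a median fold of 12.3. Among CTCF-overlapping peaks 36.1% (34.5 to 37.8) were lost at starts and 20.9% (20.4 to 21.4) elsewhere. Within deciles of fold this order did not hold throughout. In decile 1 the shares were 70.4% (66.3 to 74.2) at starts and 61.4% (57.9 to 64.8) elsewhere, and in decile 4 they were 38.04% (33.5 to 42.8) and 46.1% (44.2 to 48.01). Among all CTCF-free peaks fewer were lost at starts, 69.3% (67.0 to 71.4) of 1659 at starts and 76.1% (74.8 to 77.3) of 4382 elsewhere, a difference of −6.80 points (−9.38 to −4.28). This difference depended on how peaks were paired: it was −1.25 points (−3.54 to 0.958) with a reciprocal overlap of 50% and −0.421 points (−2.70 to 1.77) with summits within 200 bp, both within counting error of 0. With a −log10 q threshold of 10 in both lists it was −3.07 points (−6.65 to 0.177), also within counting error of 0. With that threshold on the peak's own list alone it was −14.02 points (−18.7 to −9.25), and with lists of equal length −18.96 points (−24.3 to −13.6).

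The 5 lost CTCF-free peaks of highest fold at start sites had folds from 8.97 to 10.8. The strongest had its summit 99 bp from the start of NFKBIZ, which encodes a nuclear regulator of NF-kappaB, on chromosome 3 from 101827414 to 101828191, with a DMSO fold of 10.8 and a summit pileup of 42 fragments. That interval also lies within NXPE3. At the shared start of KATNAL2, a katanin-like gene, and PIAS2, a SUMO ligase, the fold was 10.3. At GJA1, the gene of the gap junction protein connexin 43, it was 9.50, on chromosome 6 from 121435388 to 121435883. At ID2, an inhibitor of bHLH transcription factors, it was 9.16, on chromosome 2 from 8681399 to 8682479. At YWHAQ, a 14-3-3 protein gene, it was 8.97. STAG1 lay under all of these except GJA1 and STAG2 under none, and clone A2 in DMSO listed all 5. The strongest retained CTCF-free peak lay at ZBTB12, a zinc-finger gene, and inside C2, a complement gene, on chromosome 6 from 31901748 to 31902648, with a fold of 33.8 in DMSO and 9.80 at 24 h. Retained peaks at TBL1XR1, a corepressor component, and at the shared start of SNX25 and CFAP97 had DMSO folds of 17.0 and 15.9, with 4.14 and 8.51 at 24 h. The retained start-site peaks were picked for comparison after their values were seen.

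RefSeq promoters (GRCh38.p14, 250 bases before to 50 after the start, 5′ to 3′ on the strand of the gene) are printed below. NFKBIZ, GJA1 and ID2 are 3 of the 5 starts with the strongest lost CTCF-free peaks. ZBTB12 is the start with the strongest retained CTCF-free peak. The windows of KATNAL2 and YWHAQ, the others of the 5, are not printed and had 81.3% and 69.7% G and C. NFKBIZ is chr3:101827740-101828039 on the plus strand, GJA1 chr6:121435396-121435695 on the plus strand, ID2 chr2:8681806-8682105 on the plus strand and ZBTB12 chr6:31902037-31902336 on the minus strand. Capitals mark a match on either strand to one of 6 motifs, overlapping matches being joined. The motif GGGCGG is the GC box and the motif CCAAT the CCAAT box. The motif TATAAA is the TATA box, and the motif TGANTCA is the site of AP-1 factors. The motif GGAATG is the site of TEAD factors, and the motif AGGGGGC stands for the core of the CTCF site.
NFKBIZ: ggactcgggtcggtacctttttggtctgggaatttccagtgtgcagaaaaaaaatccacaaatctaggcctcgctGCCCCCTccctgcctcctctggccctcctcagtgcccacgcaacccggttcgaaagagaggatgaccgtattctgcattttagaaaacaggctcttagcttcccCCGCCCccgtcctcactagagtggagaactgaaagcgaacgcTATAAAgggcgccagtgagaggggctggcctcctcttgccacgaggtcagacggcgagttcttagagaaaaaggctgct
GJA1: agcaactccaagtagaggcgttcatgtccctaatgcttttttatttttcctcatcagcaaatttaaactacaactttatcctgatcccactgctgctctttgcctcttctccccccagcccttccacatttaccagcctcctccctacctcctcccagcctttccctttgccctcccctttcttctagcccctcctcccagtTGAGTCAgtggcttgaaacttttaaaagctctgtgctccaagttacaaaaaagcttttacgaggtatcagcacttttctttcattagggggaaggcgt
ID2: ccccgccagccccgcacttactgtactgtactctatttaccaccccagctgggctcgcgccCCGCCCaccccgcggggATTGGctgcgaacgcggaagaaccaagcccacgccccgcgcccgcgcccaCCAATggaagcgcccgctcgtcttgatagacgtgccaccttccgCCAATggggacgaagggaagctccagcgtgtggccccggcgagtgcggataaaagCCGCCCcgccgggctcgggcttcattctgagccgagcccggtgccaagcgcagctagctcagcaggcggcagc
ZBTB12: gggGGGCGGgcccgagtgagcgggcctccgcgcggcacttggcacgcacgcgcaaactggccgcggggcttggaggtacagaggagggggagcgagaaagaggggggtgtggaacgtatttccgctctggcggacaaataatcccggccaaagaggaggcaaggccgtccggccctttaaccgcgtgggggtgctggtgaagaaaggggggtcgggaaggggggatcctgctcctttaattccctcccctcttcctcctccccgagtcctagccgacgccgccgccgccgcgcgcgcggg
The 4 windows differ in composition: G and C make up 55.7% of the NFKBIZ, 47.0% of the GJA1, 69.0% of the ID2 and 69.0% of the ZBTB12 window. NFKBIZ holds 1 GC box, 1 TATAAA and 1 AGGGGGC match, GJA1 an AP-1 match and no GC box, and ID2 3 CCAAT matches and 2 GC boxes. ZBTB12 holds 1 GC box and no other of these motifs.

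Start sites under CTCF-free peaks were compared by the share that holds each motif. Of the motifs scanned, some of which are not given here, only the ETS letters had intervals that do not overlap between the classes. They were more frequent at starts with lost peaks, and no correction was made for the number of motifs. GGGCGG was in 77.8% (75.3 to 80.1) of 1139 starts with lost and 75.2% (71.3 to 78.8) of 505 starts with retained peaks, against 56.3% of all 22132 start sites. CCGGAAG (ETS) was in 20.5% (18.3 to 22.99) and 14.1% (11.3 to 17.4), against 12.8%. Under CTCF-overlapping peaks the ETS letters were in 17.5% (15.4 to 19.7) of lost and 14.3% (12.9 to 15.8) of retained cases, with intervals that overlap. AAGATGG (YY1) was in 7.46% (6.08 to 9.14) and 4.16% (2.74 to 6.27), against 6.05%. TATAAA was in 4.30% and 4.36%, against 9.46%, and TGANTCA in 5.09% and 4.75%, against 6.15%. AGGGGGC was in 18.96% (16.8 to 21.3) and 20.2% (16.9 to 23.9), against 17.5%. At starts under CTCF-overlapping peaks it was in 24.7% (22.4 to 27.2) of lost and 25.4% (23.6 to 27.3) of retained cases. Median G and C content was 67.7% and 68.7% at starts with lost and retained CTCF-free peaks and 62.3% at all start sites.

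Away from start sites and CTCF, the strongest lost peaks had DMSO folds near 15. They lay 504489 bp from NR2F1, a nuclear receptor gene, on chromosome 5 from 93078379 to 93079362 (fold 15.5), inside CDKAL1, a tRNA-modifying enzyme gene, on chromosome 6 from 21022210 to 21022920 (15.3), and inside MUSK, a receptor kinase gene, on chromosome 9 from 110744662 to 110745455 (15.0). Another lay 898247 bp from GOT2 on chromosome 16 from 59632093 to 59632960 (13.3). All 4 overlapped STAG1 and STAG2 and lay in both the DMSO and 24 h lists of clone A2, so none was lost at 24 h in that clone. The clone A2 4 h list, however, held none of these 4 peaks. The peaks near NR2F1 and in CDKAL1 were also absent from the clone D7 4 h list. Besides the ZBTB12 start, the strongest retained CTCF-free peaks were a pair nearest PKDCC on chromosome 2, with DMSO folds of 22.01 and 20.6 and 24 h folds of 14.2 and 12.0, and a peak inside SNTG1 with 20.1 and 24.4.

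Widths differed between the classes within every decile of fold that held at least 20 lost peaks. Lost peaks were narrower by 61 bp in decile 1 (464 against 525 bp), by 90 bp in decile 4 (474 against 564 bp) and by 86 bp in decile 8 (723 against 809 bp). Over all peaks the medians differed by −295 bp (−300 to −289), and by −71.8 bp when matched on fold. Of peaks under 400 bp 73.5% (72.1 to 74.9) were lost, and of those from 700 to 1000 bp 11.9% (11.3 to 12.4). At 1500 bp or more the share was 12.1% (10.6 to 13.8), within counting error of the latter. Retained sites themselves were narrower at 24 h in 70.7% of pairs, with a median difference of −91 bp and a median summit displacement of 15 bp. Their fold and −log10 q were also lower at 24 h, but both are scaled within their own library and are no measure of occupancy. The median fold of retained peaks was 15.9 in DMSO and 13.2 at 24 h, and the median −log10 q was 82.0 and 51.5. Whether a general fall in signal took weak peaks below the calling threshold was not tested. Near the threshold of the rule, 16 retained peaks had an overlap under 100 bp, and 17 lost peaks ended within 200 bp of a 24 h peak.

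Spacing between neighbouring summits had a median of 34.3 kb (33.7 to 34.9) in DMSO and 46.8 kb (46.0 to 47.7) at 24 h. Gaps under 10 kb fell from 8120 to 4433, or from 21.6% to 14.7% of all gaps. The difference in medians was 12485 bp (11508 to 13542) at full length and 1903 bp (824 to 3185) with lists of equal length. Lost peaks were crowded: 46.5% (44.7 to 48.4) of DMSO peaks with another within 2 kb were lost, and 24.6% (22.9 to 26.5) of those with none within 100 kb. For CTCF-free peaks the corresponding shares were 78.8% (75.9 to 81.4) and 72.9% (66.2 to 78.7). For CTCF-overlapping peaks they were 32.7% (30.6 to 34.8) and 19.9% (18.2 to 21.7). A peak whose next neighbour was lost was itself lost in 35.7% (34.9 to 36.6) of cases, and one whose neighbour was retained in 29.2% (28.6 to 29.7), a difference of 6.55 points (5.52 to 7.58).

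Of 7546 runs of lost peaks 5050 were single peaks, beside a lost share of 31.2% over all DMSO peaks. At such a share most runs would be single without any order, so their shortness is no trait of lost peaks. The longest run of lost peaks held 15 over 337 kb on chromosome 9 from 116000746 to 116337398, at PAPPA, a protease of IGF-binding proteins. Their DMSO folds ran from 2.85 to 13.3, 6 overlapped CTCF and the span held 1 peak at 24 h. A run of 13 lay inside ZMIZ1 on chromosome 10 from 79073325 to 79184453, with folds of 2.76 to 4.92 and no peak at 24 h. A run of 12 covered CCDC57, SLC16A3, the lactate exporter gene, and CSNK1D, a casein kinase gene, on chromosome 17 from 82212572 to 82298437. Retained peaks were the larger class, so the lengths of their runs are not compared with those of lost peaks. The longest retained run held 41 peaks on chromosome 4 from 87092723 to 89434886, from AFF1 to GPRIN3, among them the SPP1 and SPARCL1 matrix genes, with 38 peaks on CTCF and a median fold of 19.6. Another held 27 peaks on chromosome 2 from 162422920 to 165294091, from KCNH7 to the sodium channel gene SCN2A.

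Lost and new peaks were distributed in opposite ways over the chromosomes. The lost share was highest on chromosome 19, 38.9% (36.2 to 41.6), and on 22 and 16, 36.5% and 36.3%. It was lowest on chromosome 4, 26.4% (24.5 to 28.4), and on 18, 27.1%. The new share was 19.5% on chromosome 13 and 18.1% on chromosome 4, against 6.06% on chromosome 19. Across the 23 chromosomes gene density and the lost share had Pearson's r = 0.753 (Spearman's coefficient 0.669), and gene density and the new share r = −0.776 (Spearman's coefficient −0.819). The chromosomes share both libraries, so these are descriptions. The share of CTCF-free peaks did not follow the loss closely (r = 0.141), and among CTCF-overlapping peaks alone the relation with gene density was r = 0.832. As given above, sites on gene-poor chromosomes were also those that the DMSO list lacked and other lists held, and the part of library composition in this pattern was not tested.

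**Figure D4:**
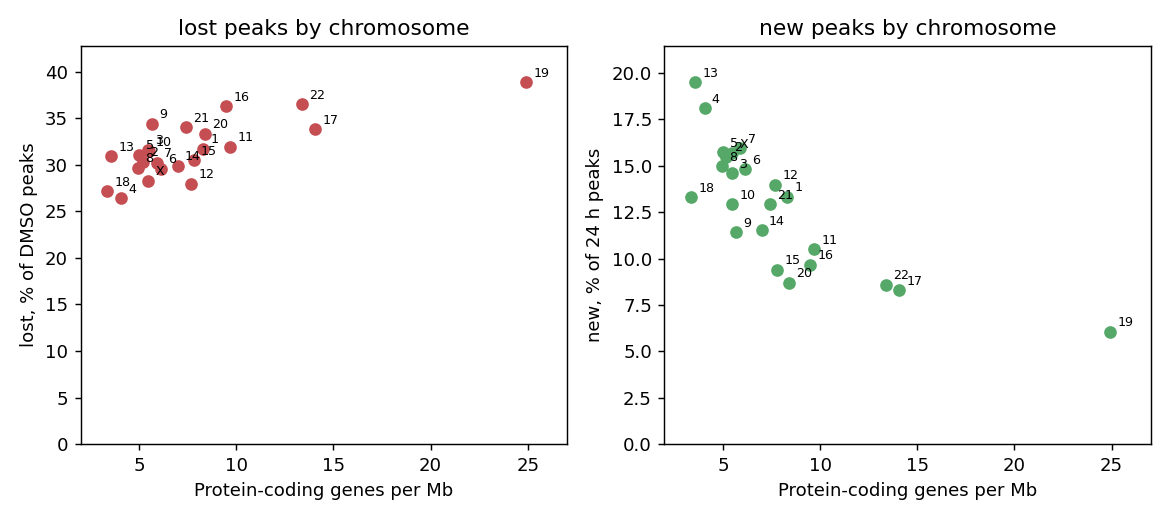
Lost share of DMSO peaks (left, percent) and new share of 24 h peaks (right, percent) of each chromosome, labelled by name, against protein-coding genes per Mb (x axes). Gene-dense chromosome 19 has the highest lost share (38.9%) and the lowest new share (6.06%), and gene-poor chromosome 4 has the lowest lost share (26.4%) and a new share of 18.1%.

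By genes, 56.4% (55.5 to 57.3) of lost, 46.7% (46.1 to 47.3) of retained and 48.4% (46.9 to 49.9) of new peaks lay inside a protein-coding gene. Exons and introns were not analysed here, and a peak in overlapping genes counts for each. Of 9135 genes with a DMSO peak inside, 2220 lost every one, or 24.3%, 2437 lost some and 4478 lost none. Among the 806 genes with at least 5 peaks, 9 lost all and 81 none. Most losses fell in ZMIZ1, a transcriptional coactivator gene on chromosome 10, with 17 of 19 peaks lost. AOPEP, an aminopeptidase gene, lost 13 of 18, and LPP, a LIM-domain adhesion gene, 12 of 17. EXT1, which builds heparan sulfate, and SMAD3, the transducer of TGF-beta signals, each lost 11 of 13. SEPTIN9 lost 11 of 15 and ADAMTSL1 11 of 17. HIVEP2 lost all 8 of its peaks, and ARHGAP29, NIBAN2 and RAI1 all 6. At the other end MAGI2, a synaptic scaffold gene of 1437 kb, kept all 11 peaks and had 4 new ones. GALNT13, GNG7 and MARCHF1 kept all 9, with 2 new peaks in GALNT13 and 2 in MARCHF1. In genes under 25 kb 42.9% (41.1 to 44.6) of peaks were lost, and in genes of 500 kb or more 28.6% (26.6 to 30.7). Fold, CTCF overlap and the share at start sites were not analysed by gene length, so these shares are no effect of length alone.

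Peaks in or within 10 kb of the genes of 6 lists were counted beside the 31.2% lost over all DMSO peaks. The list for YAP, TGF-beta and AP-1, factors that drive growth and matrix genes in adherent epithelial cells, holds targets and also pathway components. Its genes lost 61 of 125 peaks, 48.8% (40.2 to 57.5). Their median DMSO fold was 6.94 and 67.2% lay on CTCF, against 9.78 and 83.1% over all DMSO peaks, so weak and CTCF-free peaks were more frequent around them. WWTR1, the gene of TAZ, lost 6 of 11 peaks, TEAD1, the DNA-binding partner of YAP, 5 of 10, and SKI, a repressor of SMAD signalling, 5 of 7. None of the 5 lost SKI peaks was on CTCF. Extracellular matrix and adhesion genes lost 43 of 100, 43.0% (33.7 to 52.8), at a median fold of 5.75 and with 68.0% on CTCF. Among them the collagen gene COL5A2 lost 4 of 10, the integrin gene ITGA3 4 of 6, with a lost peak of fold 16.9, and the lysyl oxidase gene LOXL2 4 of 8. ITGB5 lost 3 of 7. Among DMSO peaks with −log10 q of 10 or more these lists lost 36.5% (27.5 to 46.4) and 27.03% (18.2 to 38.1), against 21.5% of all DMSO peaks. Within 50 kb of the genes they lost 45.7% (39.6 to 51.98) and 36.6% (29.6 to 44.3). The matrix list thus lay above the whole only within 10 kb and inside the genes (44.8%, 33.5 to 56.6), and its interval took in the value of all DMSO peaks in the other settings.

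The other lists lay within counting error of the whole. Genes of cohesin and its regulators lost 14 of 32 peaks, 43.8% (28.2 to 60.7). HDAC8, the SMC3 deacetylase gene, lost both of its peaks, MAU2 2 of 3 and PDS5B 2 of 5, while STAG1 kept all 3. Retinal pigment epithelium genes lost 17 of 47, 36.2% (24.0 to 50.5). SLC16A3 lost 7 of 7, all in the run on chromosome 17, so that locus alone gave 7 of the 17 lost peaks of this list. TJP1 lost 2 of 5 and BEST1 1 of 3. MITF, the pigment cell regulator, kept all 4 and the keratin gene KRT8 all 3. Cell cycle and p53 pathway genes lost 16 of 46, 34.8% (22.7 to 49.2). BAX, a death effector, lost 3 of 4, CDK6 2 of 6 and CDKN2A both of its peaks, while the cyclin gene CCND1 kept all 3. HOX clusters lost 3 of 18, 16.7% (5.84 to 39.2), at a median fold of 36.3 and with CTCF under every peak. The lost peaks were the one near HOXD8, one shared by the 10 kb windows of HOXA3, HOXA4, HOXA5 and HOXA6 (fold 8.75), and one by HOXC8 and HOXC9 (4.93). HOXB5 and HOXD13 kept 3 of 3.

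**Figure D5:**
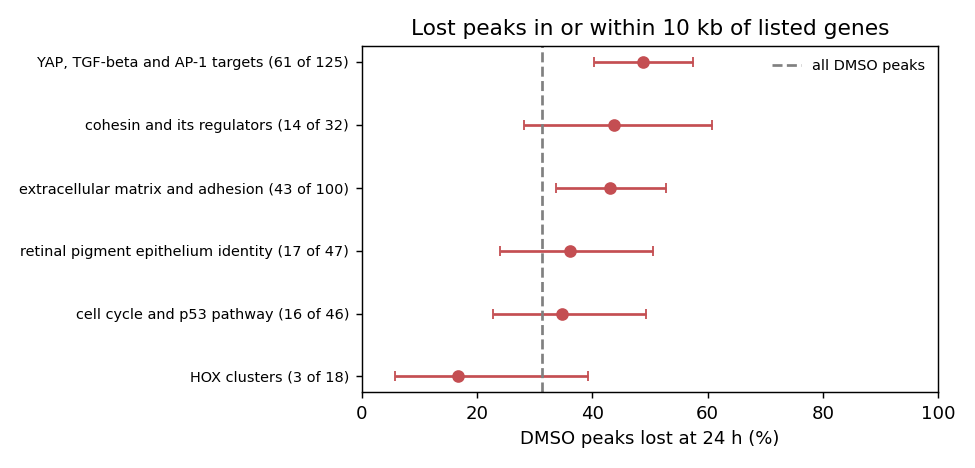
Share of DMSO peaks lost at 24 h (x axis, percent, points with 95% Wilson intervals) among peaks inside or within 10 kb of the genes of each list, with lost and total peaks beside its name, and the 31.2% over all DMSO peaks as a dashed line. The intervals of the YAP, TGF-beta and AP-1 targets and components (48.8%) and of the matrix genes (43.0%) lie above the line at this window. Those of the other 4 cross it.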

How the data were processed

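RAD21 was measured by ChIP-seq in clone NIPBL-D7, with 1 library per condition. The series holds 22 samples, of which 10 are inputs, and 11 of the 12 peak lists were read. The submitters' processing notes name BWA, Picard, SAMtools, bedtools, deepTools and MACS2, with hg38 and mm10, without versions, roles or order. The deposited lists give for each peak a position, a score, a fold enrichment over local background (a ratio) and −log10 p and q values, per the file layout. Peaks were called per sample, and the lists of RAD21 reach down to a −log10 q near 2.00.

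Overlaps, distances to RefSeq start sites, deciles of fold and Wilson and Newcombe intervals were computed with Python 3.11.15, numpy 2.4.6, pandas 2.3.3 and scipy 1.17.1. Summit pileups were recovered from fold and −log10 p below 250, were whole within 0.01, and give the depth. Overlap and pileup steps were tested on simulated data. Start sites of chromosome 8, those of other genes without a listed start, and peak sequences were not analysed here. Named items were those highest by fold, by lost or retained peaks per gene, or by run length in each class. A few of them are not reported here. The members and lists were chosen with earlier results of these data known. Alternatives in overlap, threshold, list length, CTCF definition and windows were tried.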

Additional observations from a re-analysis of the deposited data

How the results depend on the processing

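No paired analysis was possible because clone D7 has 1 library per condition and the results are overlaps of peak lists that come from no test. Of 93 alternatives 2 reversed a direction, both for the CTCF share of new minus lost peaks: −10.7 points at equal list length and −21.9 points for peaks lost from or new to the DMSO lists of both clones. The restrictions to the clone A2 DMSO list, those without strong new peaks, the use of either gene end, and the STAG1 against STAG2 differences and the clone A2 share of new peaks with all their alternatives, were chosen after seeing the data. The cause of the changes was not tested. Depth limits the weak peaks most, since a peak can drop below the calling threshold without leaving the site.

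With a reciprocal overlap of 50% the lost share was 36.6%, the new share 20.9%, the CTCF-free minus CTCF-overlapping difference in lost share 53.2 points, the start-site difference among CTCF-free peaks −1.25 points, the CTCF share of new minus lost peaks 12.4 points, the width difference −252 bp, the neighbour difference 9.37 points and the clone A2 difference 55.9 points. With summits within 200 bp the first 6 of these were 34.8%, 18.7%, 55.2 points, −0.421 points, 11.6 points and −277 bp. With a −log10 q of at least 10 in both lists they were 27.8%, 13.0%, 63.9 points and −3.07 points, with −258 bp in width, 14344 bp in spacing, 9.21 points between neighbours and 53.8 points in clone A2. With that threshold on the peak's own list alone they were 21.5%, 9.47%, 40.9 points and −14.0 points, with −282 bp and 54.9 points in clone A2. At equal list length they were 21.2%, 20.4%, 43.7 points and −19.0 points, with 1903 bp in spacing and 53.6 points in clone A2. With the upper 50% of CTCF peaks the CTCF difference was 46.5 points, the start-site difference −3.57 points and the CTCF share of new minus lost peaks 7.42 points. With CTCF summits within 500 bp the first and last of these were 47.6 and 15.9 points. Matched on deciles of fold the CTCF difference was 17.1 points, the width difference −71.8 bp and the clone A2 difference 34.8 points. Among DMSO peaks that clone A2 also had, the lost share was 21.99% and the CTCF difference 45.2 points, and 24 h peaks absent from both DMSO lists made up 5.55%. Without strong new peaks the new share was 12.4%, the CTCF share of new minus lost peaks 11.6 points and the STAG1 minus STAG2 share of new peaks −18.4 points. The STAG1 minus STAG2 share of lost peaks was 19.4 points with summits within 200 bp, 8.76 points with STAG lists of equal length and 25.0 points at CTCF away from starts, and that of new peaks was −28.6 and −36.0 points in the latter 2 settings. The STAG1-only minus STAG2-only difference in lost share was 13.6 points with STAG lists of equal length and 20.4 points matched on fold. The share of new peaks in the clone A2 DMSO list was 57.1% with summits within 200 bp and 76.8% among new peaks with −log10 q of 10 or more. Of 18 alternatives for the gene lists, whose intervals are wide, 14 stayed within the counting interval and 4 moved. For the other results most alternatives fell outside the counting interval of the main value. All alternatives for the lost share of DMSO peaks did so.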

Other observations

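Among CTCF-free DMSO peaks, the STAG lists of untreated clone D7 separated the lost from the retained. Of 518 CTCF-free peaks that overlapped both STAG1 and STAG2, 49.8% (45.5 to 54.1) were lost. The share was 61.4% (59.2 to 63.6) of 1914 with STAG1 only, 76.0% (72.9 to 78.7) of 836 with STAG2 only and 85.7% (84.4 to 86.9) of 3088 with neither. Their median DMSO folds were 5.67, 4.25, 4.61 and 3.86, so the peaks with both were also the strongest. At CTCF the order of the single-subunit classes was the opposite, with the STAG1-only peaks lost more often.

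Among CTCF-free peaks the lost share did not fall steadily with distance from start sites. Between 1 and 10 kb from a start site 82.7% (79.2 to 85.7) of 520 were lost, at a median fold of 3.92, against 69.3% (67.0 to 71.4) within 1 kb, at a median fold of 3.85. Between 10 and 50 kb the share was 78.1% (75.6 to 80.4), and its interval overlaps that of the peaks at 1 to 10 kb. Between 100 and 500 kb the share was 73.3% (71.1 to 75.4), at a median fold of 4.45. All these shares use the overlap of at least 1 bp. As given above, the difference between starts and elsewhere depended on how peaks were paired. Other pairings were not analysed for these distances.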
